A study of Homo sapiens with 6 samples.

Results

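Acute phase, complement and C/EBP genes were examined in LOX-IMVI human melanoma cells in which *NFKBIZ* was silenced. The members were the 9 genes named *LCN2*, *SAA1*, *SAA2*, *C3*, *CFB*, *C1R*, *C1S*, *CEBPB* and *CEBPD*, found by name among the 47432 genes counted in each library. LOX-IMVI is an established melanoma cell line. It was transduced with lentiviral pLKO.1 vectors and kept under puromycin, which both groups share: the 3 shCtrl libraries carry a control hairpin without a coding target and the 3 shNFKBIZ libraries carry a hairpin against *NFKBIZ*. Cells were grown in RPMI medium with fetal serum. A single *NFKBIZ* hairpin is described for the silenced cells, so an effect of that hairpin on other transcripts cannot be told apart from the loss of *NFKBIZ*. The study describes the 3 libraries of a group as independent experiments in 1 cell line.

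*NFKBIZ* encodes IκBζ, a nuclear co-factor of NF-κB that can raise or lower the transcription of a subset of NF-κB targets. In epithelial cells, C/EBPβ and C/EBPδ (encoded by *CEBPB* and *CEBPD*) act beside NF-κB and STAT3 on acute phase genes. These include *SAA1* and *SAA2*, which encode serum amyloid A, and *LCN2*, which encodes the iron-siderophore-binding protein lipocalin 2. C1r and C1s are the proteases that start the classical complement pathway, C3 is the component on which all complement pathways meet, and factor B (*CFB*) supplies the protease of the alternative pathway convertase.

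Of the 9 members, 1 passed the threshold of at least a 2-fold change with an adjusted P of at most 0.05: *CEBPD*, which fell 2.16-fold in shNFKBIZ. *C3* and *SAA1* also fell, but by less than 2-fold, and *CEBPB* rose 1.23-fold. The remaining 5 members, *LCN2*, *SAA2*, *CFB*, *C1R* and *C1S*, had at most 10 exon reads in any library and stayed below the filter on low counts. Among all 13843 genes tested, 8.96% passed the threshold, 5.12% as lower and 3.84% as higher in shNFKBIZ, and 65.3% had an adjusted P of at most 0.05. All 4 members tested had such an adjusted P, so the share of members with a small P is read against a background in which most genes have one. The median log2 fold change of the 4 members was -0.77, beside 0.0043 for all genes tested.

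Changes are given as shNFKBIZ over shCtrl. TPM is an abundance scaled to a common library total, computed from exon reads and exon length and so comparable between genes; fold changes come from the exon reads with TMM scaling factors, which adjust for library composition, and can differ from the ratio of mean TPM. The libraries held between 22264473 and 24624839 exon reads each. In bulk RNA, fewer cells expressing a gene and less RNA per cell cannot be told apart. The targeted gene *NFKBIZ* had 41.4, 42.9 and 49.2 TPM in shCtrl and 13.7, 14.1 and 13.3 TPM in shNFKBIZ. Its log2 fold change was -1.78 (SE 0.0581, edgeR adjusted P = 7.204e-17), 3.43-fold lower. *NFKBIZ* shares 15753 bases with *NXPE3* on the same strand, which had 4304 exon reads over shCtrl and 3801 over shNFKBIZ. The labelled cell type was checked with marker genes. Melanocytic markers summed to between 3.06 and 4.10 TPM in shCtrl and between 1.79 and 2.44 TPM in shNFKBIZ. This sum was mostly *MITF*, which fell 1.70-fold (edgeR adjusted P = 2.549e-05). *SOX10*, *MLANA* and *S100B* had 0 exon reads in all 6 libraries. Markers of the dedifferentiated melanoma state summed to between 3493 and 3673 TPM in shCtrl and between 3475 and 3560 TPM in shNFKBIZ, mostly *VIM*. Within that sum *SOX9* rose 2.41-fold (edgeR adjusted P = 7.575e-15), *EGFR* 1.58-fold and *AXL* 1.13-fold, and *VIM* fell 1.14-fold. *NGFR*, also on that list, was nearly absent, with 4 exon reads over shCtrl and 2 over shNFKBIZ.

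**Figure D1:**
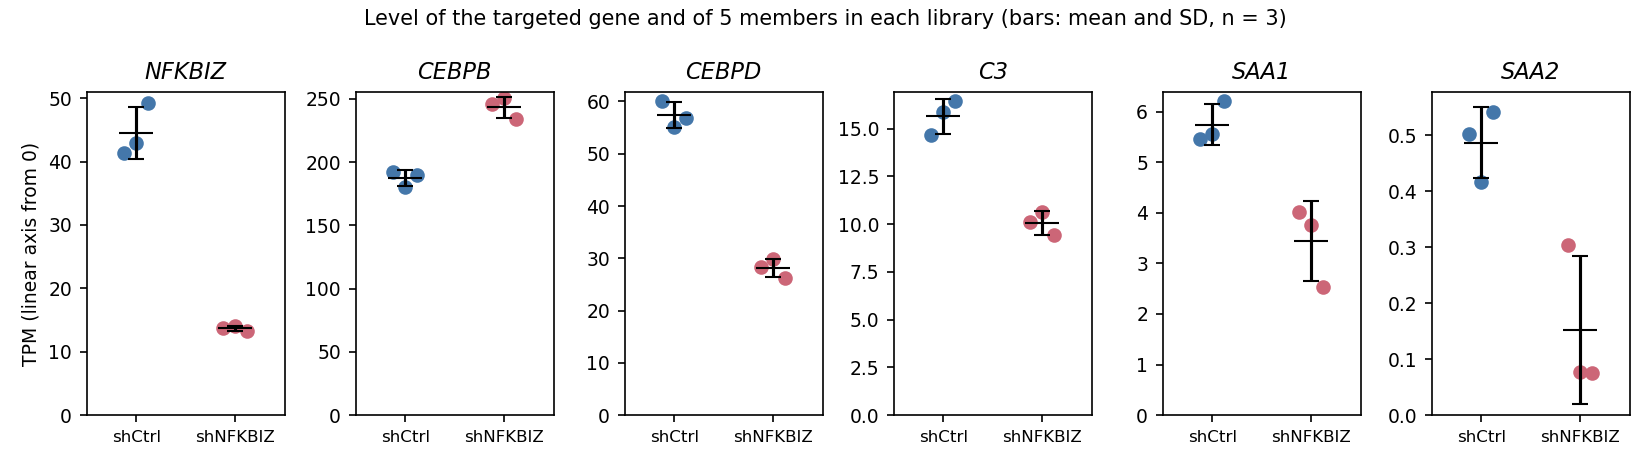
TPM of *NFKBIZ* and of the members *CEBPB*, *CEBPD*, *C3*, *SAA1* and *SAA2*, 1 panel per gene with its own linear axis from 0. Points are single libraries (3 per group) and bars give the mean and SD. *CEBPB* was higher and the other genes shown lower in every shNFKBIZ library than in any shCtrl library, and *SAA2* stayed under 1 TPM throughout. *C1S* is not shown, although it had 36 exon reads over all libraries against 26 for *SAA2*, and its groups overlapped.

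The C/EBP factors were the most abundant members and moved in opposite directions. *CEBPD* (ENSG00000221869, hg38, chromosome 8, 47736913 to 47738164, minus strand, a gene of 1 exon) encodes C/EBPδ, a factor induced rapidly in the acute phase response. Exon reads numbered 468, 444 and 410 in the control libraries against 208, 215 and 196 in the silenced ones, or 60.1, 55.2 and 56.8 TPM against 28.4, 29.9 and 26.3 TPM. The groups were far apart: the highest shNFKBIZ library lay well below the lowest shCtrl library. Mean levels were 57.4 ± 2.52 TPM in shCtrl and 28.2 ± 1.78 TPM in shNFKBIZ (SD, n = 3). The log2 fold change was -1.11 (SE 0.0784, edgeR adjusted P = 4.562e-11), and 581 of the 13843 genes tested had a log2 fold change as low or lower. All 1941 *CEBPD* reads matched 1 place in the genome, and no other annotated gene overlaps it. Across the alternative settings the log2 fold change ranged from -1.14 to -1.02, so the fall is close to the 2-fold limit under each of them.

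*CEBPB* (ENSG00000172216, chromosome 20, 50190830 to 50192668, plus strand, also 1 exon) encodes C/EBPβ, a main effector of interleukin-6 signalling on acute phase genes. The control libraries gave 2200, 2129 and 2016 exon reads and the silenced ones 2645, 2649 and 2560. Levels rose from 187.5 ± 6.53 TPM to 243.4 ± 8.45 TPM (SD, n = 3) without overlap between the groups. The log2 fold change was 0.29 (SE 0.0395, edgeR adjusted P = 1.086e-06), a rise under 2-fold that stayed between 0.27 and 0.38 across alternatives. *CEBPB* ranked 763 by mean TPM in shCtrl among all genes counted. An antisense gene, *CEBPB-AS1*, covers 669 of its bases and had 9 exon reads over the shCtrl libraries and 40 over the shNFKBIZ libraries. Counting ignored strand, so reads in the shared bases cannot be assigned to 1 of the pair, and the difference in *CEBPB* itself amounted to 6345 against 7854 reads.

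As *CEBPD* fell and *CEBPB* rose, the ratio of *CEBPB* to *CEBPD* TPM was 3.20, 3.26 and 3.35 in shCtrl and 8.66, 8.39 and 8.89 in shNFKBIZ. The ratio was thus higher in each silenced library, which follows from the separate changes of both genes and is given without a test. Among 10 other genes of the C/EBP family and its regulators, 7 were tested and 1 passed the threshold, as higher. By edgeR's quasi-likelihood test, 3 of the others had a smaller fall with an adjusted P of at most 0.05. Among all genes tested, 8.96% passed the threshold and 65.3% had such an adjusted P. Groups did not overlap for 3 of the 7, beside 70.5% of all genes tested. These counts are thus not read as a trait of the family. The gene past the threshold was *TRIB2*, which encodes a pseudokinase that directs the degradation of C/EBPα. It rose from 9.03 ± 0.157 to 19.2 ± 1.11 TPM (log2 fold change 1.01, SE 0.0727, edgeR adjusted P = 6.275e-11). This value sits on the 2-fold limit and was 0.997 without shCtrl replicate 1, 0.954 without shNFKBIZ replicate 1 and 0.999 with no filter on low counts, each under it. *CEBPG*, a C/EBP protein without its own activation domain, fell from 52.0 ± 2.04 to 40.9 ± 0.461 TPM (log2 fold change -0.43, edgeR adjusted P = 5.427e-08). *DDIT3*, the stress-induced C/EBP partner CHOP, had a log2 fold change of -0.31 (edgeR adjusted P = 0.00136), and *TRIB3*, a pseudokinase induced by CHOP, one of -0.61 (edgeR adjusted P = 6.437e-09). *CEBPA*, the liver and myeloid family member, had no read in any library.

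**Figure D2:**
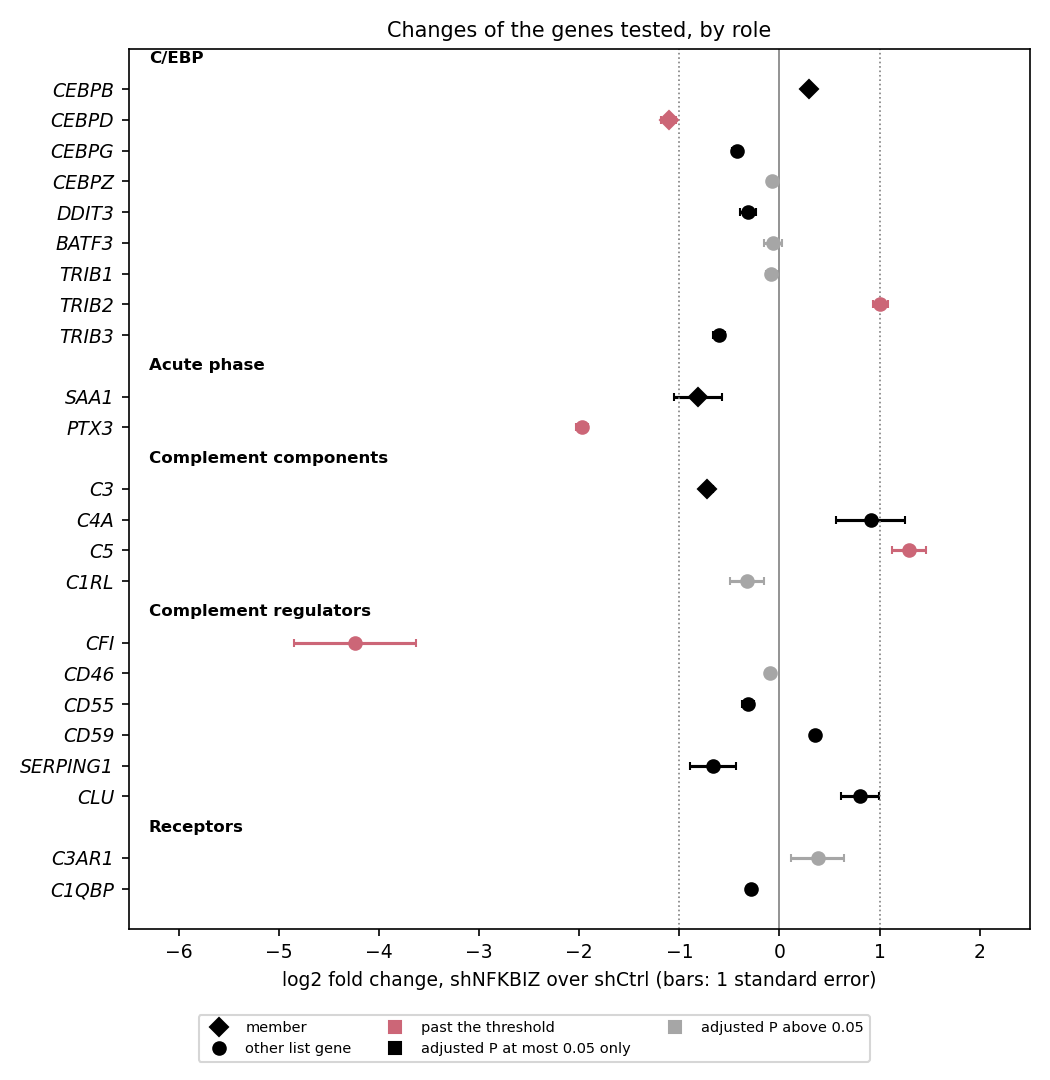
Log2 fold changes (horizontal axis, shNFKBIZ over shCtrl) of the members and reported list genes that could be tested, grouped by role, with bars of 1 standard error. Diamonds mark members and dotted lines mark 2-fold. *CEBPD* at -1.11 is the member beyond a dotted line, while *PTX3* at -1.97 and *CFI* at -4.24 lie further out and *C5* at 1.30 lies on the opposite side. *CFI* passed the filter on low counts only through its shCtrl libraries.

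The serum amyloid A genes are read from few and partly shared reads. *SAA1* (ENSG00000173432, chromosome 11, 18266260 to 18269977, plus strand) and *SAA2* (ENSG00000134339, chromosome 11, 18239223 to 18248668, minus strand) lie side by side and encode near-identical proteins. Their canonical coding sequences are both 366 bases long and identical at 355 of them (97.0%), with an identical run of up to 186 bases. A read inside such a run fits both genes. The coding stretch with the most differences, coding bases 231 to 290, is shown because reads crossing it can be assigned to 1 of the genes. It is given for the coding strand from hg38, at chr11:18269717-18269776 for *SAA1* and chr11:18245456-18245515 for *SAA2*, and capitals mark the 7 bases that differ.
SAA1: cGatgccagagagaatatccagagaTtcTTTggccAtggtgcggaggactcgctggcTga
SAA2: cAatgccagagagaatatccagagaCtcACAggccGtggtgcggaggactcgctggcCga

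For *SAA1*, 36, 38 and 38 exon reads in the control libraries stood against 25, 23 and 16 in the silenced ones, which is 5.45, 5.57 and 6.20 TPM against 4.02, 3.77 and 2.53 TPM. Each silenced library was below each control library. The log2 fold change was -0.82 (SE 0.240, edgeR adjusted P = 0.00505), 1.76-fold lower. Over the alternatives it ranged from -0.95 to -0.65, with the highest adjusted P, 0.0391, when shNFKBIZ replicate 3 was left out. Of its 176 reads, 69.3% matched a unique place (exact 95% interval 61.9 to 76.0%). Restricted to these, the counts were 26, 26 and 27 against 18, 14 and 11, and the log2 fold change was -0.89 (SE 0.266, edgeR adjusted P = 0.00366). The fall was thus also present in reads that *SAA1* does not share with *SAA2*.

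For *SAA2* the counts were 7, 6 and 7 exon reads with the control hairpin and 4, 1 and 1 with the *NFKBIZ* hairpin, below 1 TPM in all libraries. The groups did not overlap, and the ratio of summed counts per total was 0.316 with an exact 95% interval of 0.104 to 0.816 that covers counting error only. *SAA2* was filtered from the main test. In the fit without a filter its log2 fold change was -1.70 (SE 0.692, edgeR adjusted P = 0.0390). Of the 26 reads, 17 were unique, split as 6, 4 and 5 against 1, 1 and 0. The liver paralog *SAA4* had no read. Across the 4 members tested, no group of libraries overlapped with the other in depth-scaled counts, as was the case for 70.5% of all genes tested.

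*LCN2* (ENSG00000148346, chromosome 9, 128149071 to 128153453, plus strand), a strongly induced IκBζ target in epithelia, was at the limit of detection. The 3 shCtrl libraries held 0, 0 and 0 of its exon reads, the shNFKBIZ libraries 2, 0 and 0. A count of 0 allows up to 3 reads over the shCtrl group, or 0.102 TPM. No fold change is given, and a loss of *LCN2* could not have been detected at this depth. The promoter of *LCN2* is shown because the gene carries letters that match the relevant factors while giving almost no reads. RefSeq promoter windows (GRCh38.p14, 250 bases before to 50 after a start) were matched for 4 of the 9 members. They were searched on both strands for the NF-κB consensus by name, for TTGCNNAA, a C/EBP half-site pair, and for TTCNNNGAA, a STAT consensus. Of 35116 windows of 300 bases, 11.3%, 10.5% and 7.66% held these in that order. In the *LCN2* window an NF-κB match began 175 bases and a TTGCNNAA match 143 bases before the start. These do not overlap, and both are in capitals in chr9:128149268-128149327, plus strand.
LCN2 promoter: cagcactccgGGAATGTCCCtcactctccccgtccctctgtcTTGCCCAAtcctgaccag

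The *CFB* window held an NF-κB match 112 bases and a TTCNNNGAA match 92 bases before its start. Both *C1R* windows held TTGCNNAA, at 106 and 167 bases before their starts. The window with the match at 167 bases also held a TTCNNNGAA match 86 bases before its start. Of the *CEBPB* windows, 1 held a pair of overlapping NF-κB matches on a G and C run and the other held none of the searched letters. A match is a description of letters, and its part in expression was not tested. Of these genes with a match, *LCN2*, *CFB* and *C1R* had few reads and *CEBPB* had 2016 or more per library.

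*C3* was the complement component with by far the most reads among the members. *C3* (ENSG00000125730, chromosome 19, 6677704 to 6730562, minus strand) gave 1054, 1180 and 1097 exon reads in the control libraries and 685, 708 and 648 after silencing. These correspond to 14.6, 15.9 and 16.4 TPM and to 10.1, 10.6 and 9.41 TPM, with no overlap. The log2 fold change was -0.72 (SE 0.0548, edgeR adjusted P = 1.529e-10), 1.65-fold lower and short of 2-fold. It stayed between -0.76 and -0.63 under the alternatives. Of the *C3* reads, 98.3% were unique, and reads across exon junctions made up 56.6% of the exon reads in shCtrl and 58.1% in shNFKBIZ. The neighbouring *GPR108* shares 649 bases with the *C3* gene on the same strand and had 1488 exon reads over shCtrl and 1363 over shNFKBIZ.

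Reads in introns give a second readout, since they come largely from unspliced RNA. For *C3* there were 35, 36 and 29 intron reads in shCtrl and 9, 21 and 9 in shNFKBIZ. The groups did not overlap, and the log2 fold change was -1.44 (SE 0.281, edgeR adjusted P = 7.853e-05), past the threshold. On intron reads 6.60% of the 12119 genes tested were past it. *C3* passed the filter on low intron counts only with the help of its shCtrl libraries. The direction of its intron change was thus tied to the filter, and the intron P is no separate support. The intron estimate ranged from -1.93 to -1.24 across the alternatives that tested *C3*. With at least 10 counts required in every library *C3* was not tested on introns. Whether the intron change differs from the exon change was not tested.

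The other complement members had few exon reads. *CFB* (ENSG00000243649, chromosome 6, 31945650 to 31952086, plus strand) gave 2, 1 and 1 exon reads in the control libraries against 0, 1 and 2 after silencing. None of these 7 reads was unique, and a readthrough gene (ENSG00000244255) covers 6399 bases of it. *C1R* (ENSG00000159403, chromosome 12, 7080214 to 7092540, minus strand) had 2, 2 and 0 against 1, 0 and 0 exon reads. *C1RL*, which shares 2954 bases with it on the same strand, had 186 exon reads over shCtrl and 150 over shNFKBIZ. The *C1R* ratio of 0.264 had an exact 95% interval of 0.00535 to 2.66. Neither gene showed a difference detectable at this depth.

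**Figure D3:**
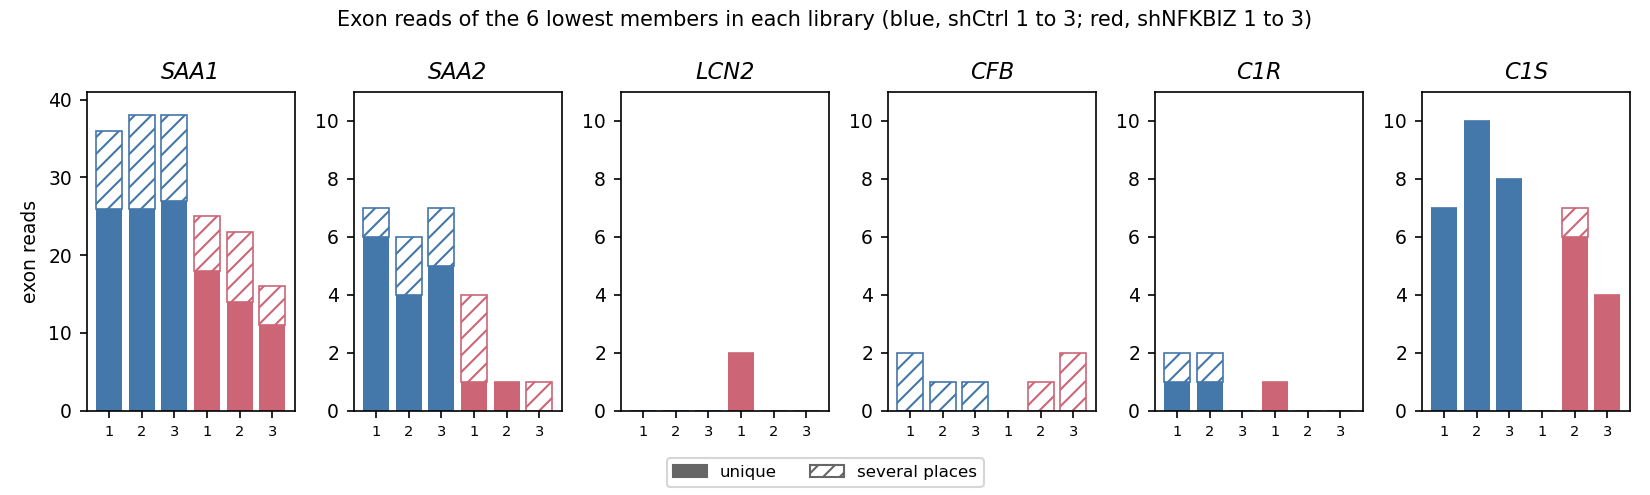
Exon reads of the 6 members with the fewest reads, 1 bar per library (blue, shCtrl 1 to 3, and red, shNFKBIZ 1 to 3), with the vertical axis up to 41 for *SAA1* and up to 11 for the others. Filled parts are reads with a unique place and hatched parts are reads that match several places. *SAA1* fell from 36 to 38 reads to between 16 and 25, while no *CFB* read was unique and *LCN2* had reads in 1 library.

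*C1S* (ENSG00000182326, chromosome 12, plus strand) had fewer exon reads in sum and more intron reads in shNFKBIZ. The difference between these readouts was not tested. Exon reads were 7, 10 and 8 in shCtrl and 0, 7 and 4 in shNFKBIZ, so the groups touched at 7 reads. The ratio of summed counts per total was 0.464 with an exact 95% interval of 0.206 to 0.977. In the fit without a filter the log2 fold change was -1.18 (SE 0.570, edgeR adjusted P = 0.0944). Intron reads were 86, 95 and 74 in shCtrl and 153, 144 and 151 in shNFKBIZ, without overlap. Their log2 fold change was 0.72 (SE 0.120, edgeR adjusted P = 6.693e-06), 1.65-fold higher and under 2-fold.

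Introns supplied 95.1% of all reads counted for *C1S*. The gene as counted runs from 6988259 to 7071032, 82774 bases, whereas its canonical transcript of 12 exons begins at 7060718 and spans 10315 bases. The upstream extension overlaps ENSG00000290146 on the same strand by 9170 bases and *LPCAT3*, a phospholipid acyltransferase gene on the opposite strand, by 30219 bases. ENSG00000290146 had 85, 82 and 78 intron reads in shCtrl and 123, 133 and 120 in shNFKBIZ. *LPCAT3* had 58, 65 and 63 against 24, 32 and 33 intron reads. The intron reads of *C1S* thus moved with those of ENSG00000290146 and against those of *LPCAT3*, and their part in the *C1S* result was not tested.

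**Figure D4:**
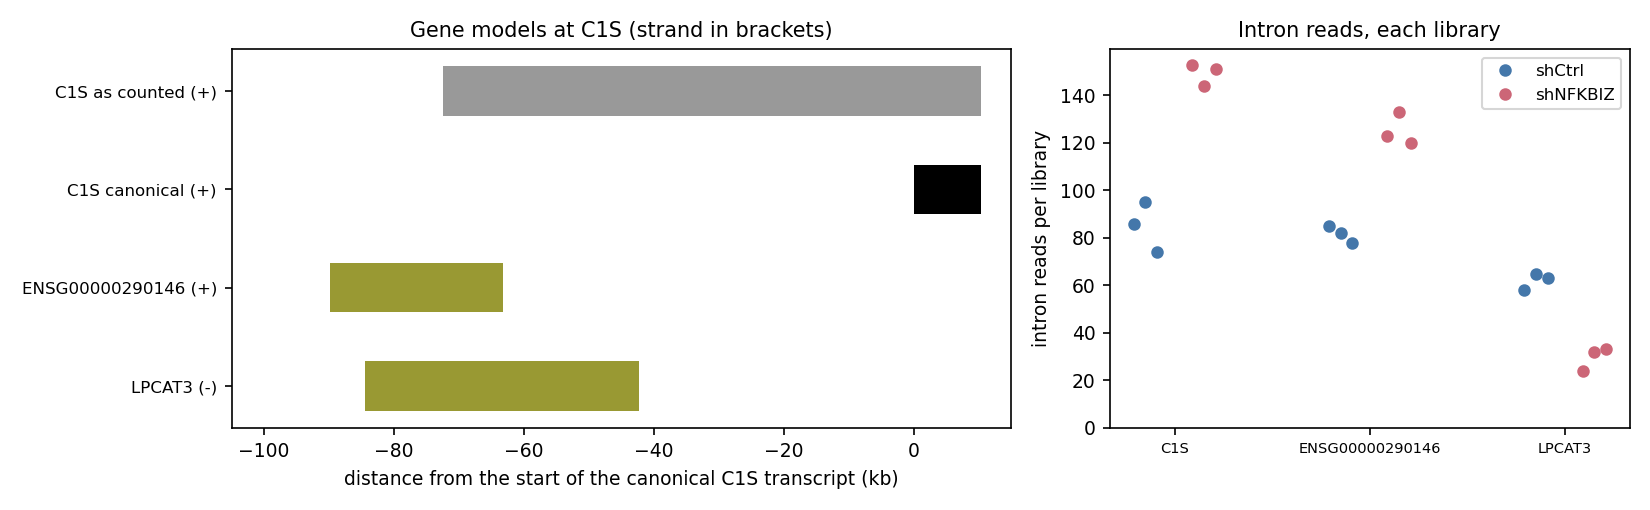
Left, the *C1S* gene as counted, its canonical transcript and the overlapping genes, placed by distance in kb from the start of the canonical transcript. Right, intron reads per library of each gene (points, 3 libraries per group). The counted gene reaches 72.5 kb upstream of the canonical start, and intron reads were higher in shNFKBIZ for *C1S* and ENSG00000290146 and lower for *LPCAT3*.

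Around these members, 38 further complement genes were listed, of which 13 had no exon read and 11 were tested. Of the tested genes, 1 passed the threshold as lower (*CFI*) and 1 as higher (*C5*), beside 5.12% and 3.84% of all genes tested. Another 3 fell and 3 rose by less than 2-fold with an edgeR adjusted P of at most 0.05, and 3 did not reach it. The 11 tested genes had a median log2 fold change of -0.09. Groups did not overlap for 8 of the 11, beside 70.5% of all genes tested. The same number had an adjusted P of at most 0.05, beside 65.3% of all genes, so neither count stands apart from the background.

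Among the soluble regulators, *CFI* and *SERPING1* fell, while *CLU*, given below with the membrane regulators, rose. *CFI* encodes factor I, the protease that inactivates C3b. Its exon reads went from 11, 32 and 20 in the control libraries to 2, 0 and 1 after silencing, a log2 fold change of -4.24 (SE 0.612, edgeR adjusted P = 4.957e-06). The estimate was -5.09 without shNFKBIZ replicate 1 and -3.71 without shNFKBIZ replicate 2, the ends of its range over the alternatives. ENSG00000285330 covers 70992 bases of *CFI* on the same strand and had 20, 0 and 0 exon reads in the control libraries against 0, 5 and 3 after silencing, and the split of reads between these genes is uncertain. Of the *CFI* reads in shCtrl 39.7% were unique, and on unique reads *CFI* was left out by the filter. On all exon reads *CFI* passed the filter only through its shCtrl libraries. The direction of its change was thus tied to the filter, and its P is no separate support. With at least 10 counts required in every library *CFI* was not tested. *SERPING1*, the inhibitor of C1r and C1s, had 70, 75 and 57 against 61, 27 and 40 exon reads (log2 fold change -0.67, edgeR adjusted P = 0.0166). The adjusted P of *SERPING1* rose to 0.0811 without shNFKBIZ replicate 2, and its log2 fold change was -1.02 without shNFKBIZ replicate 1.

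The membrane regulators were well covered. *CD46*, a cofactor for factor I, had 30.2 ± 2.19 TPM in shCtrl and 29.9 ± 0.575 TPM in shNFKBIZ, with a log2 fold change of -0.09 (edgeR adjusted P = 0.0536). *CD55*, which speeds the decay of the convertases, fell with a log2 fold change of -0.32 (edgeR adjusted P = 8.524e-05). *CD59*, which blocks the membrane attack complex, rose with one of 0.35 (edgeR adjusted P = 2.587e-09), and *CLU*, a fluid-phase inhibitor of that complex, with one of 0.80 (edgeR adjusted P = 0.000968).

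Of the other components, *C5*, whose cleavage starts the terminal pathway, gave 41, 45 and 34 exon reads in the control libraries and 92, 88 and 118 in the silenced ones. The groups were separate, and the log2 fold change was 1.30 (SE 0.169, edgeR adjusted P = 6.702e-07), 2.46-fold higher from a control level of 0.385 ± 0.0331 TPM. *C4A* rose from 32 to 61 summed exon reads (log2 fold change 0.91, edgeR adjusted P = 0.0249). Its near-identical copy *C4B* had 28 and 11 and was not tested. As 12.5% of the *C4A* reads in shCtrl were unique, the split between the copies is uncertain, and the *C4A* adjusted P rose to 0.148 without shCtrl replicate 3. *C2*, which forms the classical convertase with C4, had 5 and 8 reads.

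Of 29 further acute phase and iron-binding genes, 11 had no exon read and 1 was tested. That gene was *PTX3*, a long pentraxin made by non-liver cells in inflammation. Its exon reads were 1078, 1080 and 1004 with the control hairpin and 273, 275 and 266 with the *NFKBIZ* hairpin, from 91.2 ± 1.76 to 24.6 ± 0.830 TPM (SD, n = 3). Its log2 fold change was -1.97 (SE 0.0583, edgeR adjusted P = 1.493e-17), 3.92-fold lower. *VEPH1* shares 6784 bases with *PTX3* on the opposite strand and had 5156 exon reads over shCtrl and 3955 over shNFKBIZ. The part of this overlap in the *PTX3* counts was not tested. Of the liver-type genes on the list, *CRP*, *FGA* and *ORM1* had no read, while *ALB* had 8 reads over shCtrl and 5 over shNFKBIZ and *TF* had 18 and 19.

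Markers of other cell types were read beside these results. Hepatocyte markers summed to between 0.288 and 0.576 TPM in shCtrl and between 0.0980 and 0.159 TPM in shNFKBIZ, with *APOB* at 0, and the part of this sum in the *SAA1* and *SAA2* levels was not tested. It rests on few reads, with 8 and 5 for *ALB*, 3 and 0 for *TTR* and 4 and 1 for *APOA1* over shCtrl and shNFKBIZ, and the exact 95% interval of each ratio includes 1. Leukocyte markers summed to between 96.7 and 100.2 TPM and between 198.0 and 199.4 TPM, nearly all of it *CD68*, of whose shCtrl reads 6.48% were unique. *PTPRC* had at most 1 read in a library and *CD3E* none. Keratinocyte markers summed to between 0.308 and 0.728 TPM and between 1.42 and 1.85 TPM, mostly *KRT14*.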

How the data were processed

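RNA sequencing of 6 LOX-IMVI libraries (3 shCtrl, 3 shNFKBIZ) was analysed from the per-library gene tables. Per the study's methods, the authors mapped reads to GRCh38 with Ensembl gene models in CLC Genomics Workbench and counted pairs once, without strand and with reads of several places kept. The counts used here are the deposited total and unique exon reads per gene, and intron reads were taken as gene minus exon reads. The authors' own TPM columns were not used, and TPM was recomputed from the exon counts. Gene coordinates were identical to GENCODE for all members.

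Exon counts of all genes were tested with edgeR 4.0.16 in R 4.3.3 (filterByExpr, TMM, robust quasi-likelihood test, two-sided, Benjamini-Hochberg adjustment over all genes tested), with a threshold of an adjusted P of at most 0.05 and at least a 2-fold change, and intron counts likewise. In simulated exon counts of 13684 genes with 200 changed by a log2 value of 2, the fit recovered 100% and called 0 unchanged genes. In simulated intron counts of 11938 genes it recovered 100% and called 1. The changed genes were well covered and the dispersion was fixed and low. The simulation thus does not speak to smaller changes or to low counts such as those of *SAA1*. Ratios of low counts carry exact 95% intervals for counting error only. Unique shares carry Clopper-Pearson intervals. DESeq2 1.42.0, other scaling, filters, read classes and libraries left out in turn were the alternatives. Total exon reads per library lay between 22264473 and 24624839, of which 95.0 to 95.2% were unique, and low members are limited by counting.

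Samples were grouped by their labels. The members and lists were chosen with earlier results of these data known. Named genes were *NFKBIZ*, the members, up to 4 genes in each direction with the largest change past the threshold from each list, and a few complement and C/EBP genes whatever their values. *TRIB3*, *CRP*, *FGA*, *ORM1*, *ALB*, *TF*, *LPCAT3* and the genes that overlap members or list genes were added after their values were seen. Of the listed genes, 2 are not reported here and were left out of the list counts.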

Additional observations from a re-analysis of the deposited data

How the results depend on the processing

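The number of members past the threshold was 1 (*CEBPD*) in the main fit, 2 without a filter (*SAA2* added) and 4 by adjusted P alone. Of the other listed genes, 4 passed in the main fit, 6 without a filter (*C4B*, *C4BPB* and *SERPINA1* added, *TRIB2* lost), 5 with library size alone (*C4A* added), 3 with at least 10 counts in every library, 3 on unique exon reads, 13 by adjusted P alone and 2 with a TPM difference above 4 required. Among all genes tested, 8.96% passed in the main fit and 65.3% by adjusted P alone, and 1740 of 24781 passed without a filter. The main fit tested 4 members and, of the other listed genes, 11 complement, 7 C/EBP and 1 acute phase gene. The counts above are thus not read as a trait of the members or lists. For the other listed genes, leaving out 1 library at a time gave 3 to 5. On intron reads the number of members past the threshold was 1 (*C3*), beside 6.60% of all genes tested. With at least 10 counts in every library it was 0 by edgeR, because *C3* with 9 reads in 2 libraries was left out. *C1S*, the member still tested there, had an unadjusted P under 0.05 and a fold under 2. With a replicate block the counts were 1, 4 and 1. Samples of the same number correlated at 0.025, 0.093 and 0.047 over 11492 genes, so the numbers were not taken to pair libraries. Over 19 named results and 249 alternative values, 242 kept their direction and side of the threshold, 3 lost the threshold (*TRIB2*), 4 gained it (*SERPING1*, *C4A*) and 0 reversed. A gene not past the threshold in either fit counted as kept even if its adjusted P rose above 0.05. That was so in 5 of 12 alternatives for *C4A* (edgeR and DESeq2) and in 4 of 14 for *SERPING1* (edgeR). The cause of these shifts was not tested.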

Other observations

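Among list genes below the filter on low counts, a few had separate groups. Those given with P values were picked for this separation after their values were seen, so the P values are no separate support. In the fit without a filter, 1740 of all 24781 genes tested were past the threshold. *SERPINA1*, which encodes the antiprotease α1-antitrypsin, had 26 exon reads over shCtrl and 1 over shNFKBIZ, a ratio of 0.0405 with an exact 95% interval of 0.000989 to 0.247. In the fit without a filter its edgeR adjusted P was 8.398e-06. *C4BPB*, a chain of the C4b-binding protein, had 0 reads in shCtrl and 2, 2 and 3 in shNFKBIZ, with an edgeR adjusted P of 0.0303 in that fit. The number of reads limits both values.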
